A study of Mus musculus with 9 samples.

Results

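Meis1, Meis2, Meis3, Pknox1, Pbx2, Pbx3 and Pbx4 encode homeodomain proteins of the TALE superclass, which bind DNA together with Hox proteins. They were chosen by gene symbol, and they make up 7 of the 55274 genes in the tables. Other genes of these families were not analysed here. Their levels were compared in 3 groups of 3 RNA-seq libraries of mouse bone marrow cells in culture. The donors were female C57BL/6J mice, 6 to 8 weeks old, treated with 5-fluorouracil, which depletes dividing marrow cells. NRASG12D cells carried a RAS protein locked in its active state by a change of a single amino acid, in a vector that also encodes blue fluorescent protein. NUP98-NSD1 cells carried a fusion of a nuclear pore protein with a histone methyltransferase, in a vector with green fluorescent protein. NUP98-NSD1+NRASG12D cells carried both vectors. The retroviral MSCV promoter drove both inserts, so their levels do not follow the regulation of the endogenous genes. All groups grew with 10 ng/mL human interleukin-6, 6 ng/mL murine interleukin-3, 20 ng/mL murine stem cell factor and 15% fetal bovine serum, and they were sorted by fluorescence and expanded before RNA was isolated. Cells without either insert were not analysed here. The study's methods do not say whether the 3 libraries of a group came from separate mice or transductions, so the p-values measure only the spread between these libraries, which may be technical.

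TALE proteins fall into the MEIS class (Meis and Pknox) and the PBC class (Pbx). A MEIS class protein binds a PBC class protein, keeps it in the nucleus, and the pair can join a Hox protein on DNA, where it sharpens the choice of binding site. In blood, Meis1 supports stem cells and megakaryocytes, and together with Hoxa9 and its neighbours it is known to transform myeloid progenitors in mice. The study profiled these cells to find genes that respond to the fusion and to ask what NRASG12D adds. The levels of the TALE genes bear on this because the Hox proteins act with them.

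On the mouse genome GRCm38, Meis1 (ENSMUSG00000020160.18) lies on the minus strand of chromosome 11 from 18879817 to 19018985, and Meis2 (ENSMUSG00000027210.20) on the minus strand of chromosome 2 from 115863064 to 116065839. Meis3 (ENSMUSG00000041420.18) lies on the plus strand of chromosome 7 from 16175090 to 16186504, and Pknox1 (ENSMUSG00000006705.13) on the plus strand of chromosome 17 from 31564734 to 31607693. Pbx2 (ENSMUSG00000034673.14) is also on chromosome 17, plus strand, from 34591266 to 34597400. Pbx3 (ENSMUSG00000038718.15) lies on the minus strand of chromosome 2 from 34171457 to 34373142, and Pbx4 (ENSMUSG00000031860.17) on the plus strand of chromosome 8 from 69832491 to 69872292. No stretch of 50 bases was shared between transcripts of different members. Transcripts of other genes shared 17.0% of such stretches of Meis1, 4.93% of Pbx2, 1.5% of Pknox1 and 0.190% of Meis2, and none of Meis3, Pbx3 or Pbx4. In Pbx2 they all came from Gpsm3, which overlaps it on the same strand and reached 147 FPKM. In Meis1 they were also shared with many genes that do not overlap its exons. The part of reads of those genes in the values of Meis1 was not tested. An antisense gene, Gm16140, overlaps 8.51% of the exonic bases of Meis1 and reached 1.77 FPKM at most, and Gm37818 overlaps 9.77% of them on the same strand and reached 0.455 FPKM. Strand-specific counting is not stated, so reads of overlapping genes on opposite strands may not be told apart. For genes on the same strand, such counting would not separate the reads of shared bases.

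Meis1 and Meis3 had the widest ranges of group means on the log2(FPKM + 1) scale, which compresses low genes such as Meis2. Their start regions are shown because both hold the same 8 letters, ACTTCCGG, just before the RefSeq start. This is the core of the site that ETS factors bind. Each line gives 30 bases of RefSeq sequence (GRCm38.p6), 5′ to 3′ on the strand of the gene, with the 8 letters in capitals. The Meis1 line lies on the minus strand at chr11:19018964-19018993 and the Meis3 line on the plus strand at chr7:16175365-16175394.
Meis1: tggccaccactACTTCCGGgttctagcatt
Meis3: tctccgcgtgaACTTCCGGatgtgacacag
The letters begin 13 bases before the RefSeq start of Meis1 and 19 bases before that of Meis3. In both genes they lie inside the gene span given above, which begins farther upstream. They are therefore before the start in RefSeq only. Each line overlaps an annotated exon of its own gene. Windows of 300 bases (250 before the start and 50 after) were at hand for 5 of the 7 members, all but Pbx3 and Pknox1. Meis2, Pbx2 and Pbx4 did not hold the letters on either strand, and 3.89% of all 32851 windows did. Meis2, at low levels, had the largest fold between group means of FPKM. It was 29.2-fold lower in NUP98-NSD1+NRASG12D than in NUP98-NSD1 cells. The other motifs searched on both strands, which share no run with these letters, were TGACAG for the MEIS class, TGATTNAT for PBX with Hox, AGATAA for blood zinc finger factors such as Gata2 and TGACGTCA for the cyclic AMP response. None was found in the 5 windows, against 19.2%, 3.22%, 11.2% and 1.79% of all windows. The motifs were chosen after the sequences had been seen, and a match of letters does not show that a factor binds.

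The libraries held an estimated 22550000 to 35400000 fragments, and 12078 to 13107 genes reached 1 FPKM (fragments scaled to transcript length and library depth). The test took 13493 genes, those that reached 1 FPKM in 3 or more libraries. Over the 9 libraries the estimated fragments behind a value ran from 688 to 5835 for Meis1, from 22.97 to 1331 for Meis3, from 1584 to 3498 for Pknox1, from 201 to 360 for Pbx2, from 30.03 to 217 for Pbx3, from 39.2 to 354 for Pbx4 and from 0 to 115 for Meis2. The 3 NUP98-NSD1+NRASG12D libraries lay farther from each other than those of the other groups, with a median SD over tested genes of 0.333 on the log2(FPKM + 1) scale against 0.122 in NRASG12D and 0.157 in NUP98-NSD1. Nras served as a check of the labels. Its level was 354, 479 and 348 FPKM in NRASG12D, 50.3, 47.7 and 51.2 FPKM in NUP98-NSD1 and 245, 262 and 701 FPKM in NUP98-NSD1+NRASG12D libraries, so every library with the NRASG12D vector was above every library without it. Nup98 was higher in every library with the fusion (11.9 to 20.2 FPKM) than in the NRASG12D libraries (9.12 to 11.1 FPKM), and Nsd1 overlapped between all groups. The marker lists also differed between groups. The 10 mast cell markers summed to 36190 to 38297 FPKM in NRASG12D, 29111 to 35328 FPKM in NUP98-NSD1 and 784 to 4713 FPKM in NUP98-NSD1+NRASG12D libraries. Cpa3, a mast cell carboxypeptidase, is listed at 0 in the NRASG12D libraries and is the only mast cell marker at 0 in a whole group. It adds nothing to the NRASG12D sums, while it stood at 13.6 to 13.8 on the log2(FPKM + 1) scale in NUP98-NSD1 libraries. The mast cell sums of these groups therefore rest on different genes and are not like for like. Why Cpa3 is listed at 0 was not tested. The 9 granulocyte markers summed to 2.72 to 15.3 FPKM, 1354 to 5439 FPKM and 8436 to 18800 FPKM in the same order, with Ltf and Camp listed at 0 in NRASG12D. The study describes the NRASG12D cultures as mostly IgE receptor-positive mast cells, so each comparison below also sets different mixtures of cells against each other. In bulk RNA, fewer cells of a type and less RNA per cell cannot be told apart.

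The members spanned a wide range of levels, and MEIS class genes led it. In NRASG12D cells the order of mean FPKM was Meis1 (48.3), Pknox1 (23.2), Meis3 (22.1), Pbx4 (6.10), Pbx2 (3.30), Pbx3 (2.04) and Meis2 (0.482). Of these neighbours, Pknox1 and Meis3 overlapped in their libraries and the others did not. In NUP98-NSD1 cells it was Meis1 (43.0), Pknox1 (26.3), Meis3 (9.93), Pbx4 (6.68), Pbx2 (2.99), Pbx3 (1.203) and Meis2 (1.12), and here Meis3 overlapped Pbx4 and Pbx3 overlapped Meis2. In NUP98-NSD1+NRASG12D cells Pknox1 (17.4) stood above Meis1 (9.61), followed by Pbx2 (3.28), Meis3 (3.19), Pbx4 (2.42), Pbx3 (0.512) and Meis2 (0.0384). Pbx2 overlapped Meis3 and Meis3 overlapped Pbx4. The mean of Meis1 was above 84.2% of tested genes in NRASG12D, 78.5% in NUP98-NSD1 and 45.1% in NUP98-NSD1+NRASG12D cells. That of Pknox1 was above 70.0%, 67.8% and 58.7% of them.

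**Figure D1:**
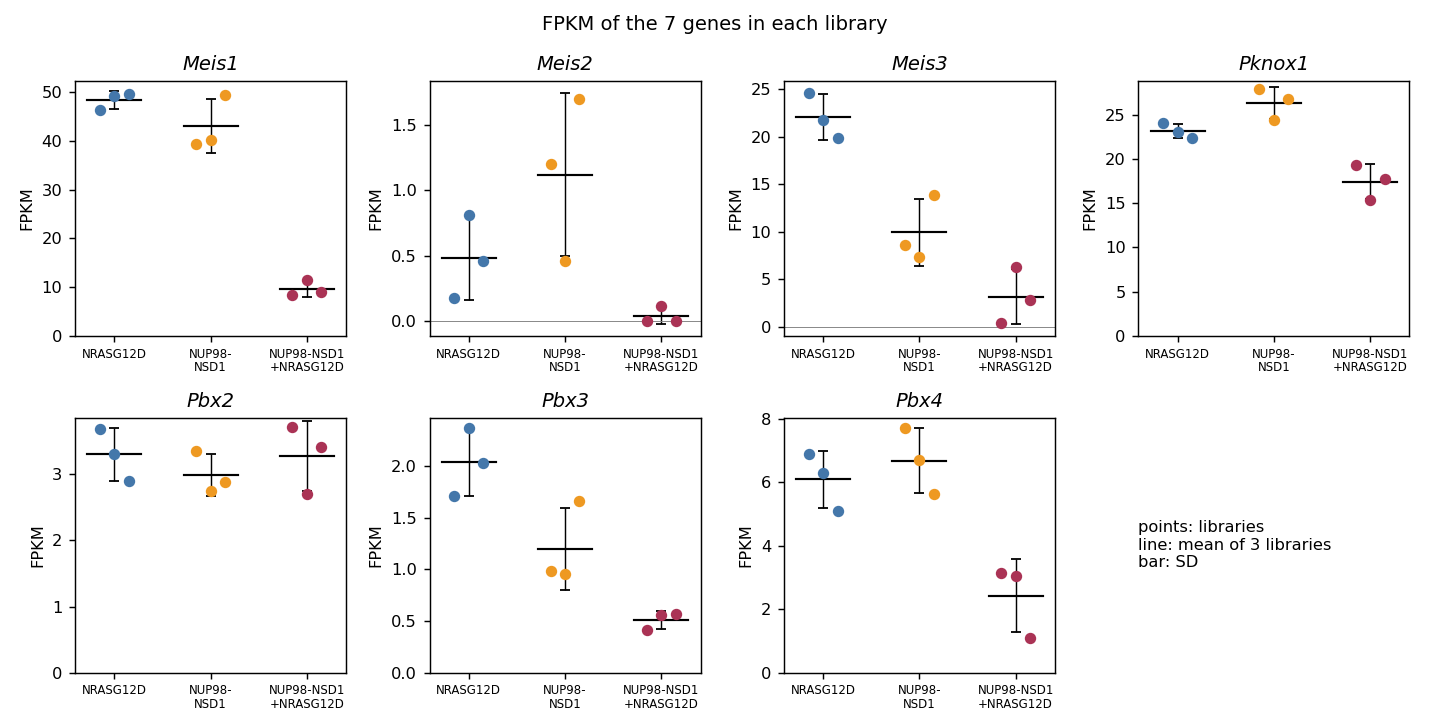
FPKM (vertical axis, linear from 0) of each gene in the 3 libraries of each group, with the mean as a line and the SD as a bar. The NUP98-NSD1+NRASG12D libraries of Meis1 lie between 8.35 and 11.5 FPKM, below all libraries of the other groups, while the groups of Pbx2 overlap.

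Meis1, the MEIS class protein best known as a partner of Hoxa9 in leukemia, was high with either single vector and low with both. It had 46.3, 49.3 and 49.5 FPKM in the NRASG12D libraries, 39.4, 40.2 and 49.4 FPKM in the NUP98-NSD1 libraries and 8.35, 11.5 and 9.02 FPKM in the NUP98-NSD1+NRASG12D libraries. The single-vector groups overlapped, and every NUP98-NSD1+NRASG12D library lay below both. Meis1 fell by 2.06 on the log2(FPKM + 1) scale between NUP98-NSD1 and NUP98-NSD1+NRASG12D (SE 0.18, adjusted p = 0.00542 by limma), a 4.47-fold lower mean FPKM. Against NRASG12D the double-vector cells were lower by a log2 fold change of -2.23 (SE 0.16, adjusted p = 0.000155), a 5.03-fold lower mean. For NUP98-NSD1 against NRASG12D the log2 fold change was -0.17, with a 95% interval from -0.42 to 0.07 (adjusted p = 0.203). NUP98-NSD1 replicate 3 weighed most on this comparison, and without it the log2 fold change was -0.27 with an adjusted p of 0.0145, the lowest of 13 alternatives that reached 0.468. The value was -0.47 with median-ratio scaling (adjusted p = 0.0226), -0.48 with quantile normalization (adjusted p = 0.0229) and -0.24 with array weights (adjusted p = 0.0185), so the call of Meis1 in this comparison depends on these settings.

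Meis3 is a less studied relative of Meis1, known mainly from hindbrain patterning. Its libraries lay in 3 separate ranges, highest in NRASG12D and lowest in NUP98-NSD1+NRASG12D. They held 24.6, 21.7 and 19.8 FPKM in NRASG12D, 8.61, 7.31 and 13.9 FPKM in NUP98-NSD1 and 0.471, 6.27 and 2.85 FPKM in NUP98-NSD1+NRASG12D. No group overlapped another, and the double-vector libraries differed among themselves more than in any other member. Meis3 fell by 1.12 between NRASG12D and NUP98-NSD1 (SE 0.21, adjusted p = 0.00553) and by 2.73 between NRASG12D and NUP98-NSD1+NRASG12D (SE 0.53, adjusted p = 0.00743). The first of these calls was lost in a single fit over all 9 libraries (adjusted p = 0.118) and kept in the other 12 alternatives, down to 0.000205. The difference between the groups with the fusion did not pass the test (log2 fold change -1.62, SE 0.56, adjusted p = 0.132). Replicate 1 of NUP98-NSD1+NRASG12D weighed most on it, and without that library the value was -1.0 (adjusted p = 0.112, where the alternatives ran from 0.0465 to 0.367).

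Meis2, a close relative of Meis1 that acts in heart, limb and nervous system development, was low in all groups and was not tested, because only 2 libraries reached 1 FPKM. Its values were 0.172, 0.813 and 0.460 FPKM in NRASG12D, 1.205, 0.456 and 1.71 FPKM in NUP98-NSD1, and 0, 0.115 and 0 FPKM in NUP98-NSD1+NRASG12D libraries. At the depth of these libraries 3 fragments give Meis2 0.0302 to 0.0473 FPKM, so the 2 libraries listed at 0 lie below that floor and all single-vector libraries above it. Every library of the single-vector groups lay above every NUP98-NSD1+NRASG12D library, with an exact permutation p of 0.1 in each comparison, the smallest that 3 libraries against 3 allow.

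Pknox1, also called Prep1, is a widely expressed MEIS class protein that restrains proliferation in several settings and competes with Meis1 for Pbx. It varied least of the tested MEIS class genes. Its libraries had 24.01, 23.1 and 22.4 FPKM in NRASG12D, 27.9, 24.4 and 26.7 FPKM in NUP98-NSD1 and 19.3, 15.3 and 17.7 FPKM in NUP98-NSD1+NRASG12D. The 3 groups did not overlap, but no comparison passed the threshold. The log2 fold change of the double-vector cells was -0.57 against NUP98-NSD1 (SE 0.15, 95% interval -0.94 to -0.21, adjusted p = 0.0665) and -0.40 against NRASG12D (SE 0.15, interval -0.74 to -0.05, adjusted p = 0.0702). Without NUP98-NSD1+NRASG12D replicate 1 these values were -0.65 and -0.47, with adjusted p of 0.0288 and 0.0240, where the alternatives ran from 0.0147 to 0.231 and from 0.00616 to 0.217. For NUP98-NSD1 against NRASG12D the value was 0.18 (interval -0.02 to 0.38), and it turned to -0.12 with median-ratio scaling and to -0.14 with quantile normalization.

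Pbx2, a PBC class protein present in most tissues, was the member with the smallest range. It had 3.69, 3.31 and 2.90 FPKM in NRASG12D, 3.35, 2.75 and 2.88 FPKM in NUP98-NSD1 and 3.72, 2.698 and 3.42 FPKM in NUP98-NSD1+NRASG12D libraries. All 3 groups overlapped. Gpsm3, which shares 6.24% of the exonic bases of Pbx2 on the same strand, had 91.3 to 147 FPKM. The part of its reads in the values of Pbx2 was not tested. The 95% intervals of its log2 fold changes ran from -0.40 to 0.19 for NUP98-NSD1 against NRASG12D, from -0.43 to 0.40 for NUP98-NSD1+NRASG12D against NRASG12D and from -0.32 to 0.50 for NUP98-NSD1+NRASG12D against NUP98-NSD1. The first of these comparisons, at -0.11 (adjusted p = 0.500), moved to -0.34 with median-ratio scaling (adjusted p = 0.0528) and to -0.46 with quantile normalization (adjusted p = 0.0236), the lowest of alternatives that reached 0.829.

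Pbx3, a PBC class protein that forms complexes with HOXA9 and MEIS1 in leukemia, was low in all groups. Its libraries held 1.72, 2.37 and 2.04 FPKM in NRASG12D, 0.985, 0.960 and 1.66 FPKM in NUP98-NSD1 and 0.412, 0.555 and 0.568 FPKM in NUP98-NSD1+NRASG12D. The groups did not overlap, and only the NRASG12D group was above 1 FPKM in every library, so Pbx3 entered the test through the group where it was highest. It fell by 1.00 between NRASG12D and NUP98-NSD1+NRASG12D (SE 0.17, adjusted p = 0.00380). Between NRASG12D and NUP98-NSD1 it fell by 0.47 (SE 0.17, adjusted p = 0.0484), and this call was lost without any library of the 6 except NUP98-NSD1 replicate 3, with adjusted p between 0.0600 and 0.148. Without that replicate it fell by 0.62 (adjusted p = 0.00966). The call was also lost without the filter (adjusted p = 0.142 by limma), in a fit over all 9 libraries (0.0695) and with a replicate block (0.0674). Over all alternatives the adjusted p ran from 0.00548 to 0.148. Between the groups with the fusion the log2 fold change was -0.53 (SE 0.18, adjusted p = 0.126).

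Pbx4, a PBC class protein known from the testis, had the highest level of the 3 Pbx genes with either vector alone. It had 6.89, 6.30 and 5.10 FPKM in NRASG12D, 7.70, 6.70 and 5.65 FPKM in NUP98-NSD1 and 3.13, 3.04 and 1.10 FPKM in NUP98-NSD1+NRASG12D libraries. The single-vector groups overlapped and the double-vector libraries lay below both. Pbx4 fell by 1.11 between NRASG12D and NUP98-NSD1+NRASG12D (SE 0.29, adjusted p = 0.0246). The adjusted p was 0.0576 to 0.0865 when any NRASG12D library was left out, and it ran from 0.00299 to 0.0865 over every alternative tried. Against NUP98-NSD1 the double-vector cells had a log2 fold change of -1.22 (SE 0.30, 95% interval -1.92 to -0.52, adjusted p = 0.0512, from 0.00548 to 0.177 over the alternatives), and NUP98-NSD1 against NRASG12D had 0.11 (interval -0.23 to 0.46). The last value turned to -0.15 with median-ratio scaling and to -0.21 with quantile normalization.

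**Figure D2:**
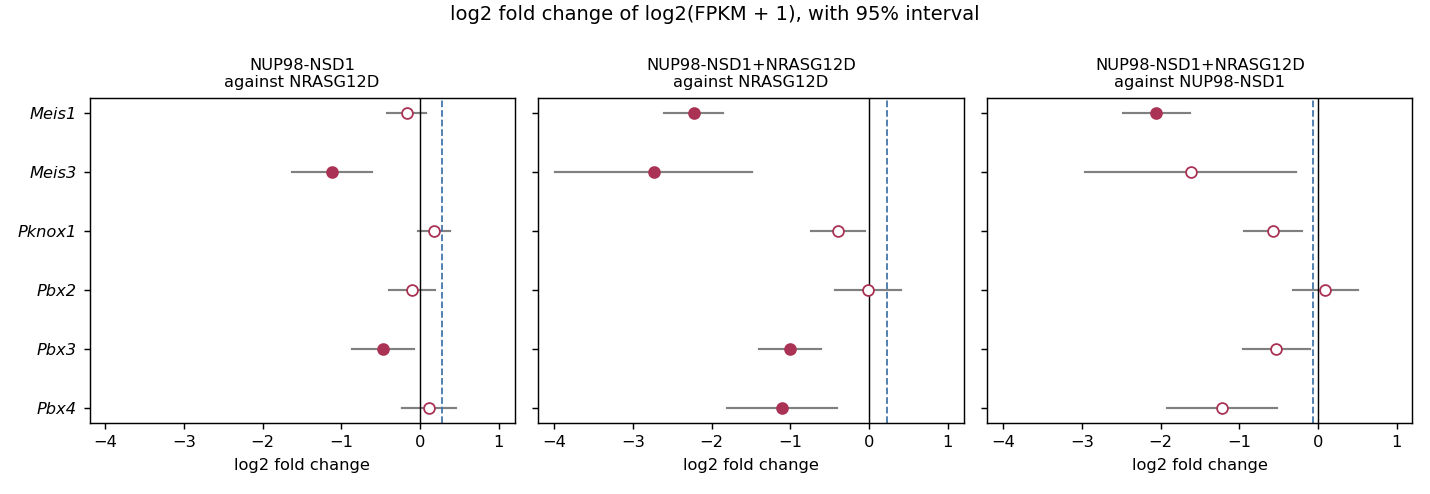
log2 fold change on the log2(FPKM + 1) scale (horizontal axis) of the 6 tested genes in the 3 comparisons, with 95% intervals as lines, filled points for an adjusted p under the threshold of 0.05, a solid line at 0 and a dashed line at the median of all tested genes. Meis1 is the only gene past the threshold in NUP98-NSD1+NRASG12D against NUP98-NSD1, at -2.06.

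All members that passed the test in any comparison were lower in the group named first. Between NUP98-NSD1+NRASG12D and NUP98-NSD1, 1 of the 6 tested members passed the test as lower and 0 as higher, where 6.31% of all genes were lower and 2.3% higher. At an unadjusted p under 0.05, 5 were lower and 0 higher. Against NRASG12D, the double-vector cells had 4 members lower and 0 higher (5 and 0 at an unadjusted p under 0.05), where 14.1% of all genes were lower and 24.2% higher. NUP98-NSD1 cells against NRASG12D had 2 members lower and 0 higher, the same counts as without adjustment, where 9.98% of all genes were lower and 42.2% higher. The libraries did not overlap in 3, 5 and 5 of the 6 tested members for NUP98-NSD1 against NRASG12D, NUP98-NSD1+NRASG12D against NRASG12D and NUP98-NSD1+NRASG12D against NUP98-NSD1, beside 64.2%, 58.6% and 31.4% of all genes. Pbx3 entered the test through the group where it was high, and the comparisons share libraries, so these counts are a description and the comparisons are not independent of each other.

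Across the 13493 genes the median log2 fold change stood at 0.27, 0.23 and -0.06 in the same order, and median-ratio scaling brought it to 0.01, 0.06 and 0.04. The split of calls over all genes moved with it: for NUP98-NSD1 against NRASG12D it was 5689 higher and 1347 lower, 3231 and 2950 with median-ratio scaling, and 2619 and 3447 with quantile normalization. For NUP98-NSD1+NRASG12D against NRASG12D it was 3266 and 1907, then 2773 and 2449, and 2155 and 3064. Relative to the median of all genes, NUP98-NSD1 against NRASG12D was -1.39 for Meis3, -0.75 for Pbx3, -0.44 for Meis1, -0.38 for Pbx2, -0.16 for Pbx4 and -0.09 for Pknox1. NUP98-NSD1+NRASG12D against NRASG12D was -2.96 for Meis3, -2.46 for Meis1, -1.34 for Pbx4, -1.23 for Pbx3, -0.62 for Pknox1 and -0.24 for Pbx2. Meis1, Meis3 and Pbx3 were lower in these comparisons under each scaling tried.

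Since a MEIS class protein pairs with a PBC class protein, the FPKM of each class were summed over its analysed members. The MEIS class sum was 95.1, 94.9 and 92.1 FPKM in NRASG12D, 77.1, 72.4 and 91.7 FPKM in NUP98-NSD1 and 28.1, 33.2 and 29.5 FPKM in NUP98-NSD1+NRASG12D libraries. The PBC class sum was 12.3, 12.0 and 10.0 FPKM, 12.0, 10.4 and 10.2 FPKM, and 7.26, 6.29 and 5.09 FPKM. Both sums were lower in every double-vector library than in any other, with an exact permutation p of 0.1 against each single-vector group. The MEIS class sum exceeded the PBC class sum 7.73- to 9.18-fold in NRASG12D, 6.41- to 9.0-fold in NUP98-NSD1 and 3.88- to 5.81-fold in NUP98-NSD1+NRASG12D libraries.

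The make-up of each class also differed. Meis1 made up 51.4% ± 2.6 (SD, n = 3) of the MEIS class sum in NRASG12D, 53.5% ± 2.3 in NUP98-NSD1 and 31.6% ± 2.6 in NUP98-NSD1+NRASG12D cells. Pknox1 made up 24.6% ± 0.55, 33.0% ± 3.6 and 58.2% ± 11.3, without overlap between the groups. Meis1 held the largest share with either vector alone and Pknox1 with both. In the PBC class, Pbx4 led with 53.1% ± 2.6 in NRASG12D and 61.3% ± 5.0 in NUP98-NSD1, and Pbx2 led with 53.7% ± 12.3 in NUP98-NSD1+NRASG12D cells, where Pbx4 had 37.7% ± 14.1. Replicate 2 of the double-vector group differed from this order, with 48.3% Pbx4 and 42.9% Pbx2. The part of Gpsm3 reads in the share of Pbx2 was not tested. The shares of Meis1, Pknox1, Pbx2 and Pbx4 in the double-vector libraries did not overlap those of either single-vector group (exact permutation p = 0.1 for each).

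**Figure D3:**
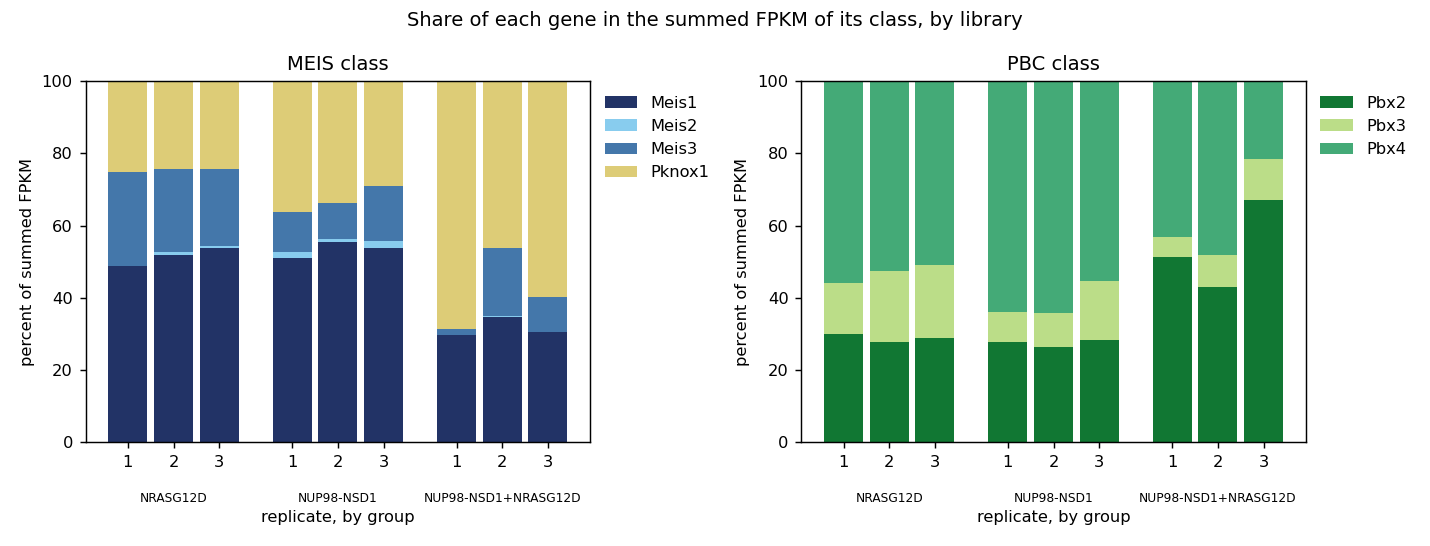
Share of each gene in the summed FPKM of the analysed members of its class (vertical axis, percent), with a bar for each library and the bars grouped by vector. Pknox1 takes 46.1% to 68.6% of the MEIS class sum in the NUP98-NSD1+NRASG12D libraries and 24.3% to 36.2% in the other libraries.

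The Hox genes were high where the fusion was present. All 39 Hox genes listed for this comparison were found and 9 were tested, all of them higher in NUP98-NSD1 and in NUP98-NSD1+NRASG12D than in NRASG12D cells. In NRASG12D cells no Hox gene exceeded 0.451 FPKM, so the 9 passed the filter only through the groups where they were high, and the count is given without weight. Hoxa9, a regulator of progenitor self-renewal and a direct partner of Meis1, had 0, 0.0253 and 0.101 FPKM in NRASG12D, 53.5, 52.2 and 37.4 FPKM in NUP98-NSD1 and 55.6, 39.0 and 75.8 FPKM in NUP98-NSD1+NRASG12D libraries. Hoxa7 had 12.7 to 31.6 FPKM in NUP98-NSD1 and 25.5 to 43.0 FPKM in NUP98-NSD1+NRASG12D libraries, and Hoxa10 had 11.3 to 17.9 FPKM and 13.3 to 40.4 FPKM. Between the groups with the fusion Hoxa9 had a log2 fold change of 0.22 (SE 0.27, adjusted p = 0.732).

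The balance of Hoxa9 and Meis1 differed in each group. Per kilobase, Hoxa9 stood at 1.36, 1.30 and 0.757 times the level of Meis1 in the NUP98-NSD1 libraries and at 6.66, 3.40 and 8.41 times in the NUP98-NSD1+NRASG12D libraries. In NRASG12D libraries the ratio was 0.00204 at most. The groups did not overlap (exact permutation p = 0.1 for each pair). Replicate 2 had the lowest ratio of the double-vector group, the highest Meis1 and the lowest Hoxa9.

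Of 9 further TALE homeobox genes, the Tgif, Irx and Mkx genes, only Tgif1 and Tgif2 were tested. Both encode repressors known for limiting retinoid and TGF-beta responses. Tgif1 had 9.63, 5.56 and 9.31 FPKM in NRASG12D, 22.6, 23.7 and 15.1 FPKM in NUP98-NSD1 and 34.3, 35.1 and 40.4 FPKM in NUP98-NSD1+NRASG12D libraries. It rose by 1.24 (SE 0.24, adjusted p = 0.00552) and by 2.07 (SE 0.22, adjusted p = 0.000639) against NRASG12D, and its log2 fold change between the groups with the fusion was 0.83 (adjusted p = 0.0523). Tgif2 had 0.191 FPKM at most in NRASG12D, 1.07 to 3.76 FPKM in NUP98-NSD1 and 1.05 to 6.87 FPKM in NUP98-NSD1+NRASG12D libraries, and since it passed the filter only through the groups with the fusion, its difference from NRASG12D is a description. The Irx genes and Mkx stayed at 0.148 FPKM or below.

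Of 14 genes known as downstream of Hoxa9 and Meis1 in leukemic cells, 13 were tested. In NUP98-NSD1 against NRASG12D 7 were higher and 0 lower, with a median log2 fold change of 0.33 beside 0.27 over all genes. As 42.2% of all genes were higher and 9.98% lower there, the count says little about the list. Flt3, a cytokine receptor of progenitors, and Sox4 were among the 7, but at 0.0213 and 0.150 FPKM at most in NRASG12D they were tested only because of the groups where they were high, and their calls are given without weight. Hlf, a stem cell transcription factor (1.36, SE 0.21, adjusted p = 0.00277), and the adaptor Lmo2 (1.66, SE 0.28, adjusted p = 0.00381) were above 1 FPKM in every NRASG12D library and rose. In the double-vector cells against NRASG12D 2 were higher and 4 lower, with a median of 0.22 beside 0.23 and with 24.2% and 14.1% of all genes called. Lmo2 was higher (2.28, SE 0.20, adjusted p = 0.000326), as was the kinase Syk (0.70, SE 0.16, adjusted p = 0.0130), while the stem cell regulator Erg (-1.54, SE 0.35, adjusted p = 0.0144) and the pseudokinase Trib2 (-1.19, SE 0.31, adjusted p = 0.0234) were lower.

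Against NUP98-NSD1, the double-vector cells had 0 of these 13 genes higher (also 0 at an unadjusted p under 0.05 by limma) and 2 lower, where 2.3% and 6.31% of all genes were, with a median of -0.44 beside -0.06. They were Hlf, at -2.24 (SE 0.30, adjusted p = 0.0102), and Erg, at -1.53 (SE 0.36, adjusted p = 0.0484). Hlf had 4.40, 6.18 and 8.75 FPKM in NUP98-NSD1 and 0.758, 0.874 and 0.0900 FPKM in NUP98-NSD1+NRASG12D libraries. The surface marker Cd34 had 400, 431 and 492 FPKM and 117, 72.9 and 9.53 FPKM there, and its log2 fold change of -3.29 did not pass the test (SE 0.83, adjusted p = 0.0568).

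The mast cell markers other than Cpa3 and Hdc had their lowest means in the same group as Meis1 and Meis3. Between NUP98-NSD1 and NUP98-NSD1+NRASG12D cells 9 of 10 fell and 0 rose, beside 6.31% and 2.3% of all genes, with a median log2 fold change of -4.56. Fcer1a, the ligand-binding chain of the IgE receptor, had 2559, 2672 and 3465 FPKM in NUP98-NSD1 and 40.3, 254 and 39.1 FPKM in NUP98-NSD1+NRASG12D libraries. Against NRASG12D the double-vector cells had 8 lower and 2 higher, beside 14.1% and 24.2% of all genes, with a median of -4.86. The 2 higher were Cpa3 and Hdc. Between NRASG12D and NUP98-NSD1 cells 5 were lower and 3 higher, beside 9.98% and 42.2% of all genes, with a median of -0.51. Cma1, a mast cell chymase, fell by 1.31 there (SE 0.16, adjusted p = 0.00140). Hdc, which makes histamine, rose by 4.31 (SE 0.56, adjusted p = 0.00156) and the protease Mcpt4 by 2.68 (SE 0.39, adjusted p = 0.00216), while the rise of Cpa3 starts from libraries listed at 0 and has no fold.

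Within the double-vector group the same library was high in both. Replicate 2 had the highest Meis1, Meis2 and Meis3 and the highest summed mast cell markers, at 4713 FPKM against 784 FPKM at the lowest. Without it, Meis1 in NUP98-NSD1+NRASG12D against NUP98-NSD1 was -2.18 (adjusted p = 0.00256, where the alternatives ran from 0.000253 to 0.0466). Of the 9 granulocyte markers 8 were higher and 0 lower in NUP98-NSD1 and also in NUP98-NSD1+NRASG12D against NRASG12D. All but Ly6g passed the filter only through the groups with the fusion, so these counts are given without weight. Between the groups with the fusion 3 rose and 0 fell, beside 2.3% and 6.31% of all genes. The 7 monocyte and macrophage markers were all higher in NUP98-NSD1 and in NUP98-NSD1+NRASG12D against NRASG12D, beside 42.2% and 24.2% of all genes. Mrc1, at under 1 FPKM in every NRASG12D library, is among them. Between the groups with the fusion 2 of the 7 rose and 0 fell, beside 2.3% and 6.31% of all genes. The sums of the 7 markers were 44.7 to 60.5 FPKM in NRASG12D, 535 to 1043 FPKM in NUP98-NSD1 and 2104 to 5049 FPKM in NUP98-NSD1+NRASG12D libraries.

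The 5 stem and progenitor markers summed to 1797 to 2207 FPKM in NRASG12D, 902 to 1498 FPKM in NUP98-NSD1 and 191 to 855 FPKM in NUP98-NSD1+NRASG12D libraries. Of the 4 tested, 2 rose and 1 fell in NUP98-NSD1 against NRASG12D, 3 fell in the double-vector cells against NRASG12D and 1 fell between the groups with the fusion. The 4 megakaryocyte markers summed to 479 to 563 FPKM, 241 to 299 FPKM and 75.7 to 1210 FPKM in the same order of groups. Of the 3 tested, 2 rose and 1 fell, 1 rose and 1 fell, and 1 fell in the 3 comparisons. The 4 erythroid markers summed to 3.23 to 6.93 FPKM, 19.5 to 54.1 FPKM and 3.16 to 31.2 FPKM, and of the 3 tested 2 rose in NUP98-NSD1 and 1 fell in the double-vector cells, each against NRASG12D. Flt3, Procr, Mrc1, Gp1bb and Klf1 were under 1 FPKM in every NRASG12D library, so the counts of these lists against NRASG12D are a description, to be read beside the 42.2% of all genes higher and 9.98% lower with the fusion alone and the 24.2% and 14.1% with both vectors. Markers of B cells and T cells summed to 0.131 and 0.155 FPKM at most in any library. The part of any of these markers in the differences of the TALE genes was not tested.

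**Figure D4:**
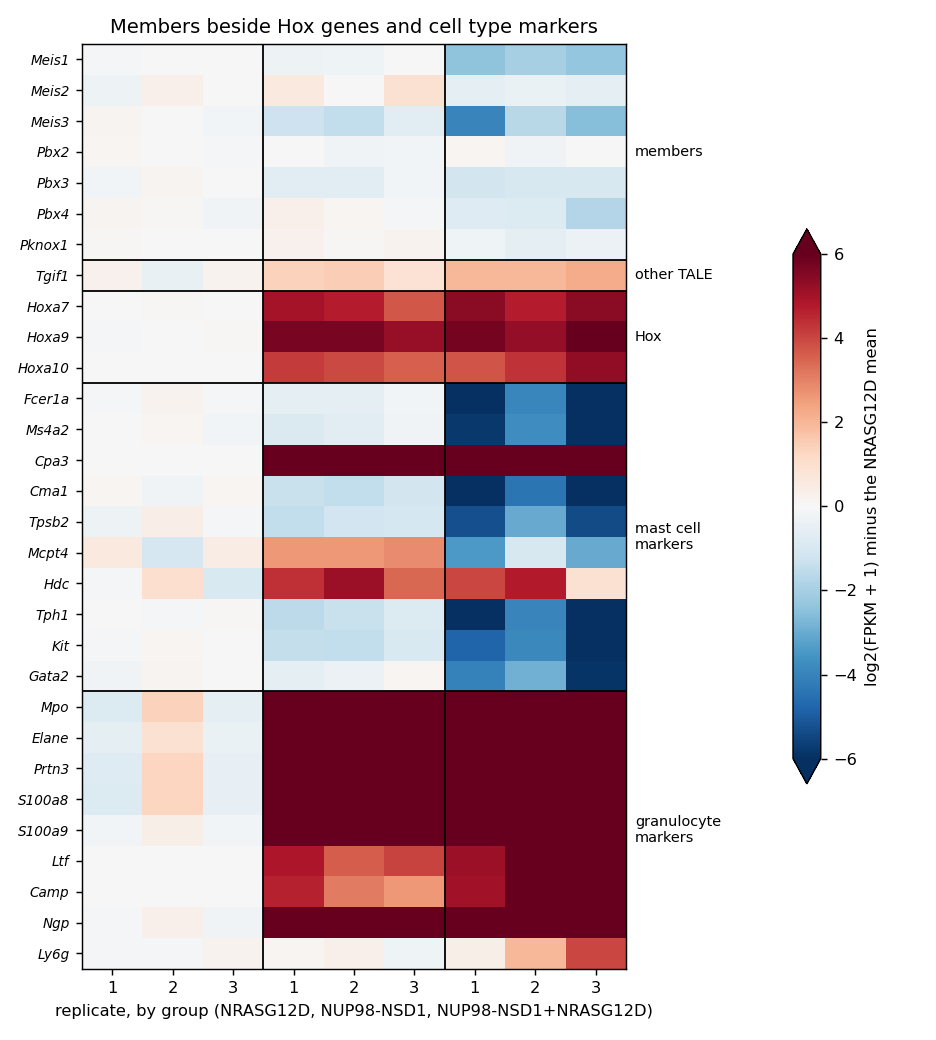
Difference of each library (columns) from the NRASG12D mean on the log2(FPKM + 1) scale (colour, saturated beyond 6 in either direction) for the 7 genes, Tgif1, 3 Hox genes, 10 mast cell markers and 9 granulocyte markers. Meis1, Meis3 and the mast cell markers other than Cpa3 and Hdc are blue in the 3 NUP98-NSD1+NRASG12D libraries, where Cpa3, Hdc, Hoxa9 and Tgif1 are red.

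The genes most like Meis3, the member with the widest range of group means (2.73 on the log2 scale), were sought over the 9 libraries by the root mean square difference of gene-centred log2(FPKM + 1). The 5 nearest of the tested genes were Cd200r4 (0.270), Tubb2a (0.287), Hpgds (0.299), Gch1 (0.306) and P2rx4 (0.315). Hpgds makes prostaglandin D, Gch1 starts the synthesis of tetrahydrobiopterin, P2rx4 is an ATP-gated channel, Cd200r4 an activating receptor and Tubb2a a tubulin. Cd200r4 averaged 278 FPKM in NRASG12D, 163 FPKM in NUP98-NSD1 and 47.6 FPKM in double-vector cells, and Hpgds averaged 159, 101 and 30.3 FPKM. Meis1 ranked 247 in likeness to Meis3 (0.618) and Pbx3 ranked 992 (0.893). The likeness is a description over libraries that share their group and depth.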

How the data were processed

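RNA-seq libraries with paired reads of 50 bp were aligned by the authors with STAR 2.7.2a to GRCm38.p6 and quantified with Cufflinks 2.2.1, versions as given in the submitters' processing notes. The deposited values are FPKM per gene for each library on GENCODE M22, in 55330 lines and 55274 gene identifiers, and lines of the same identifier were summed. Loci, exons and overlaps were taken from GENCODE M21, which holds 54882 of these identifiers, and start regions from RefSeq (GRCm38.p6). Whether counting used strand is not given in the sources used here.

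The tables hold no counts. Depth was estimated from 3386 genes with a single transcript, whose low FPKM values fall on steps of 1 fragment (82.0% to 84.3% of low values within 0.1 of a step), and estimated fragments and floors cover counting error only.

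Values were tested as log2(FPKM + 1) with limma 3.58.1 (R 4.3.3, eBayes with trend) on the 6 libraries of each pair of groups, for the 13493 genes that reached 1 FPKM in 3 or more libraries. P-values are two-sided, adjusted by Benjamini-Hochberg over the 13493 genes, and a threshold of 0.05. A fold change on this scale understates the change of low genes. Single values, sums and shares were compared by a two-sided exact permutation test, for which 3 libraries against 3 cannot give less than 0.1. Python 3.11.15 with scipy 1.17.1 was used. The fit was tested on simulated data.

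All 7 genes are named whatever their values. From each gene list up to 4 genes with the smallest adjusted p in a comparison are named, plus Hoxa7, Hoxa9 and Hoxa10, the label checks, and the 5 genes most like the member with the widest range. Fcer1a, Cma1, Cpa3, Hdc, Mcpt4, Cd34, Ltf, Camp, Ly6g, Flt3, Procr, Mrc1, Gp1bb and Klf1 were named after their values were seen where the rule did not reach them. Some genes of the lists are not reported here by name. The members and lists were chosen with earlier results of these data known. The lists were Hox genes, other TALE genes, genes downstream of Hoxa9 and Meis1, chromatin regulators, binding partners of PBX and MEIS, and markers of mast cells, granulocytes, monocytes, stem cells, megakaryocytes, erythroid cells, B cells and T cells. Alternatives were a pseudocount of 0.1, no filter, median-ratio scaling, quantile normalization, 1 fit over all 9 libraries, array weights, a replicate block, and each library left out.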

Additional observations from a re-analysis of the deposited data

How the results depend on the processing

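Of 234 recomputed fold changes of the 6 tested genes (13 alternatives for each gene and comparison), 196 kept their direction and side of the threshold, 13 no longer passed it, 19 newly passed it and 6 changed sign. Meis1 stayed lower and past the threshold in NUP98-NSD1+NRASG12D against both other groups under all 13 alternatives, as did Meis3 against NRASG12D. Pbx3 did so against NRASG12D too, but it entered the test through that group, so its call is a description. Without the filter its adjusted p was 0.0181 by limma. The sign changes were in Pknox1 (-0.12 with median-ratio scaling and -0.14 with quantile normalization) and Pbx4 (-0.15 and -0.21) in NUP98-NSD1 against NRASG12D, and in Pbx2 in NUP98-NSD1+NRASG12D against NRASG12D (0.05 without NRASG12D replicate 1 and 0.0894 without NUP98-NSD1+NRASG12D replicate 2, in a range of -0.0861 to 0.0894 when a library was left out).

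For NUP98-NSD1 against NRASG12D, 2 members passed. The count was 1 without the filter, 4 with quantile normalization, 0 in a fit over all 9 libraries (limma, 1 at an unadjusted p under 0.05) and 1 to 3 when a library was left out. For NUP98-NSD1+NRASG12D against NRASG12D, 4 passed, and 3 to 5 when a library was left out. For NUP98-NSD1+NRASG12D against NUP98-NSD1, 1 passed, against 2 with quantile normalization, 3 in a fit over all 9 libraries, 4 with array weights and 1 to 3 when a library was left out, with 3 without NUP98-NSD1+NRASG12D replicate 1. The cause was not tested. Over all genes this last comparison had 1162 calls, beside 1113 with quantile normalization, 2251 in the fit over all 9 libraries and 3500 with array weights. It had 2509 without NUP98-NSD1+NRASG12D replicate 1.

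Replicate numbers did not pair the libraries: deviations of libraries with the same number correlated at -0.177 to 0.160, and a library was nearest to its own number in 3 of 18 cases. With the replicate block the members past the threshold were 1, 4 and 2, and all genes past it were 6864, 4531 and 801, against 7036, 5173 and 1162 without it. Over all genes, a fit over all 9 libraries gave 3065 for NUP98-NSD1 against NRASG12D. Leaving out an NRASG12D library gave 2941 to 3159 for NUP98-NSD1+NRASG12D against NRASG12D. For NUP98-NSD1+NRASG12D against NUP98-NSD1 the count was 152 without the filter, 2251 in the fit over all 9 libraries, 3500 with array weights and 283 to 2509 when a library was left out. Depth limits Meis2 most, at 115 estimated fragments or fewer, and Meis3 in the library with 22.97. Pbx3 had 30.03 to 34.96 estimated fragments in the NUP98-NSD1+NRASG12D libraries, and Pbx4 had 39.2 in replicate 3 of that group.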

Other observations

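Of 14 chromatin and transcription regulators known to act on Meis1 and the Hox genes, 13 were tested. In NUP98-NSD1 against NRASG12D cells 6 rose and 0 fell, beside 42.2% and 9.98% of all genes, a share near that background, with a median log2 fold change of 0.38 beside 0.27 over all genes. Those with the smallest adjusted p by limma were the Polycomb subunits Ezh2 (0.64, SE 0.10) and Eed (0.67, SE 0.12), the DOT1L partner Mllt10 (0.72, SE 0.15) and the transcription factor Creb1 (0.52, SE 0.12). With both vectors 2 rose and 2 fell against NRASG12D, beside 24.2% and 14.1% of all genes. The ETS factor Elf1, known as a regulator of Meis1, fell by 0.57 (SE 0.13, adjusted p = 0.0157) and Mllt3, a reader of histone acylation, fell by 1.39 (SE 0.35, adjusted p = 0.0210), while the Polycomb subunit Suz12 rose by 0.62 (SE 0.18, adjusted p = 0.0322) and Creb1 by 0.59 (SE 0.18, adjusted p = 0.0399). Between the groups with the fusion 0 passed the test by limma in either direction, with 1 higher and 4 lower at an unadjusted p under 0.05.

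All 9 binding and transport partners of PBX and MEIS proteins were tested. Pbxip1, which binds PBX and keeps it from DNA, fell by 0.40 (SE 0.11, adjusted p = 0.0198) with the fusion and by 0.56 (SE 0.17, adjusted p = 0.0367) with both vectors, each against NRASG12D. The exportin Xpo1 rose by 0.88 and 0.94 and the deacetylase Hdac1 by 0.69 and 0.96. In all 4 rose and 1 fell in the first comparison and 3 rose and 1 fell in the second, near the 42.2% higher and 9.98% lower, and the 24.2% and 14.1%, of all genes. Between the groups with the fusion 0 passed by limma, and 0 had an unadjusted p under 0.05.

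The tested genes most like Meis1 over the 9 libraries, chosen after the values had been seen, were Gm30648 (root mean square difference 0.144 on the log2 scale), Crip1 (0.166), Nbea (0.177), Hrh2 (0.180) and Gm7094 (0.191). Crip1, a small LIM protein, had mean levels of 212 FPKM in NRASG12D, 188 FPKM in NUP98-NSD1 and 46.0 FPKM in NUP98-NSD1+NRASG12D cells, and Hrh2, a histamine receptor, 21.2 FPKM, 15.3 FPKM and 4.01 FPKM. Gm30648, Nbea and Gm7094 averaged 5.70, 4.98 and 5.14 FPKM in NRASG12D and 0.244, 0.286 and 0.346 FPKM in NUP98-NSD1+NRASG12D cells. These are steeper folds than that of Meis1, because the log2(FPKM + 1) scale compresses low values. Meis3 ranked 768 in likeness to Meis1.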
